A study of Mus musculus with 3 samples.

Results

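H3K36me3 was measured over the mouse zinc finger protein genes in germinal vesicle (GV) oocytes, the fully grown oocytes that are arrested before meiosis resumes. The genes were taken as the protein-coding genes of the 19 autosomes whose GENCODE M21 symbol was Zfp followed directly by a number, and 382 of 20804 autosomal protein-coding genes were members. A further 3 genes with symbols of that form were not analysed here. A member was called clustered where another member lay within 100 kb of it (216 genes in 48 clusters) and solitary otherwise (166 genes). Zinc finger genes with symbols of another form were not counted, so a solitary member could still have a relative nearby. The level of a gene was the mean of the deposited values, in RPKM, over the 2 kb windows whose midpoint lay in it, and 369 members (210 clustered and 159 solitary) held at least 1 window.

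The series holds 3 samples of a single group, GV oocytes of wild-type C57BL6/Babr mice 25 days old, in pools of about 280 oocytes whose chromatin was immunoprecipitated without crosslinking (ultra-low input native ChIP-seq). Less antibody went into replicate 2. Of the windows of the whole series, 5539 of 1186323 lay in members, and they held 49299, 17503 and 21856 reads in replicates 1 to 3. A single read corresponded to 0.136, 0.396 and 0.338 RPKM in replicates 1 to 3, so replicate 1 gave the finest steps. Values below are the mean over the 3 replicates ± SD (n = 3). All 8 oocyte marker genes examined had a level above 1 RPKM, against 1 of 7 granulosa cell markers (Nr5a2), granulosa cells being the somatic cells around the oocyte. Of all autosomal protein-coding genes with a window, 54.0% were above 1 RPKM.

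Most Zfp genes encode proteins with tandem C2H2 fingers, short folds that each hold a zinc ion and read a few bases of DNA, joined by a conserved linker. Many also carry a KRAB domain, which recruits the corepressor TRIM28, and KRAB zinc finger genes have multiplied in tandem clusters whose members silence retroelements. H3K36me3 is laid down by SETD2 behind elongating RNA polymerase II and is therefore typical of the bodies of transcribed genes, and in growing oocytes it marks the regions that acquire DNA methylation.

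The repeated finger is visible in the coding sequence. The stretches below are the first 84 bases from a linker onward in the highest and the lowest clustered member (Zfp58 and Zfp975), the highest and the lowest solitary member (Zfp68 and Zfp808) and a member left without any window (Zfp965). They were read from GRCm38, with capitals marking the 18 bases that encode the linker.
Zfp58, chr13:67491906-67491989, minus strand: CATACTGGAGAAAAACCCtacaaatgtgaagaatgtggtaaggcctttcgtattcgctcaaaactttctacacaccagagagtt
Zfp975, chr7:42662564-42662647, minus strand: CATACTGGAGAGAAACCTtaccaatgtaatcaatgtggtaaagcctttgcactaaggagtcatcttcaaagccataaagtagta
Zfp68, chr5:138606962-138607045, minus strand: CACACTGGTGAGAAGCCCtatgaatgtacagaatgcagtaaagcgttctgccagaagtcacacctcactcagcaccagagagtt
Zfp808, chr13:62171505-62171588, plus strand: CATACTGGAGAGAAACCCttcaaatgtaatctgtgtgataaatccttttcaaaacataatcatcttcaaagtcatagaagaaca
Zfp965, chr2:175479810-175479893, plus strand: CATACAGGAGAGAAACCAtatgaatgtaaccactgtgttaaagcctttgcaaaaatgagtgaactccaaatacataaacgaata

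The first 75 bases of the Zfp965 stretch, the length of a sequencing read, occurred at 2 places on the GRCm38 chromosomes. The same length from each of the other stretches occurred at 1 place. The identity between pairs of stretches ran from 51.2% (Zfp68 and Zfp808) to 78.6% (Zfp975 and Zfp965).

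The promoters of the highest and the lowest clustered member are shown next. Over the whole gene, Zfp58 had an H3K4me3 call in 2 of 5 windows and Zfp975 in 0 of 11, with 5 further windows of Zfp975 removed by the input filter. Calls at the 2 promoters alone were not compared. The RefSeq windows on GRCm38.p6 reach from 250 bases before the start to 50 after it, and capitals mark CpG dinucleotides.
Zfp58, chr13:67500473-67500772, minus strand: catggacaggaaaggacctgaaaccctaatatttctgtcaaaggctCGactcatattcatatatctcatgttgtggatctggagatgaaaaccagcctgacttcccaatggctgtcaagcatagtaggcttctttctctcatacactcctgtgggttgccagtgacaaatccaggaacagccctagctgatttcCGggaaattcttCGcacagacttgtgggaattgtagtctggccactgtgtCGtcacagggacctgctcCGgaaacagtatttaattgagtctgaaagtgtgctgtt
Zfp975, chr7:42692669-42692968, minus strand: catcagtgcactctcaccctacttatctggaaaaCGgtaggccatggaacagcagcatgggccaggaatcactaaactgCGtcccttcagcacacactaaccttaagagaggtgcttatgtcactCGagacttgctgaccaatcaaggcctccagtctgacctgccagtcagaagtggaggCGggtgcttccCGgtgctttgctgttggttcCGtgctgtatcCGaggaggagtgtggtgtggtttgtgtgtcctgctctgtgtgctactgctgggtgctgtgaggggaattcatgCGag

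The Zfp58 promoter held 5 CpG and the Zfp975 promoter 8, both under the median of 11 over the 187 clustered members found in the promoter table. Of all members, 316 were matched to that table by symbol. At least 10 CpG stood in 60.4% of the promoters of clustered members, in 72.9% of the 129 of solitary members and in 44.5% of all 25748 autosomal promoters in the table. Unlike the members, these 25748 were not restricted to protein-coding genes, so the last share is over a wider set. Among clustered members the share was 76.8% of the 95 with a level above 1 RPKM and 46.5% of the 86 without. Among solitary members it was 80.7% of 88 and 61.1% of 36. These counts are a description over promoters, with no test.

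The study called a window enriched where its mean RPKM was above 1, and the same line was used here for genes. A level above 1 was reached by 219 of 369 members (59.3%), beside 54.0% of all autosomal protein-coding genes with a window. The share was 69.2% of solitary members (110 of 159) and 51.9% of clustered members (109 of 210). In single replicates the clustered members above 1 numbered 114, 103 and 114, and the solitary members 107, 108 and 107. The median level of the clustered members was 1.09 in replicate 1, 0.991 in replicate 2 and 1.14 in replicate 3, and that of the solitary members was 1.49, 1.49 and 1.58. The solitary median was above the clustered one in each replicate, and the replicate ranges did not overlap. The median over all autosomal protein-coding genes was 1.18.

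**Figure D1:**
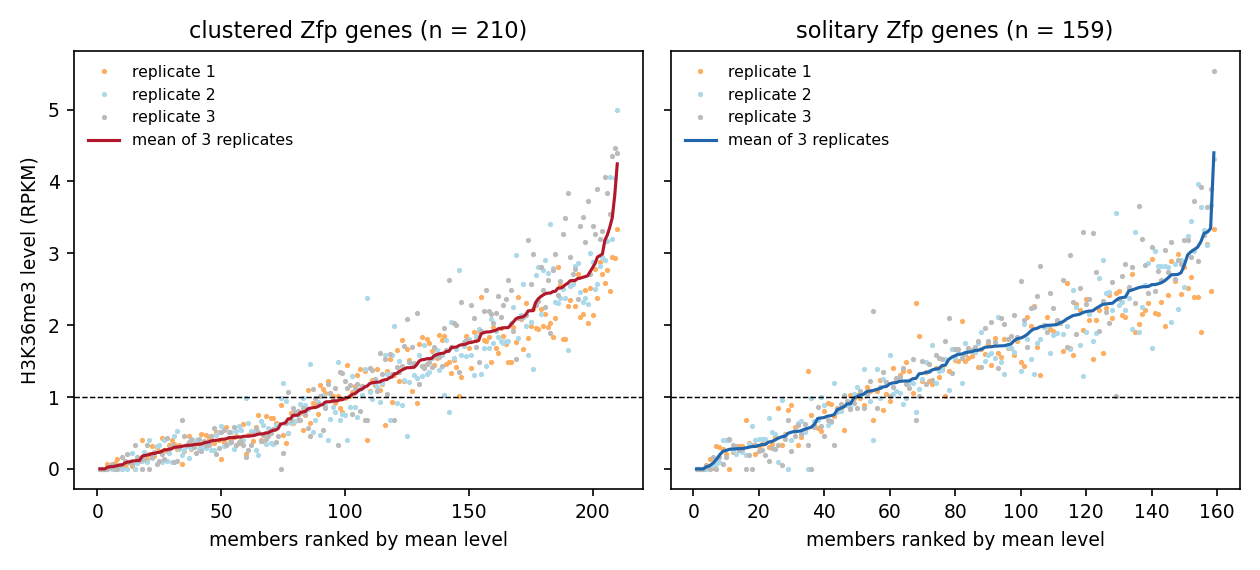
H3K36me3 level of each Zfp gene (y axis, RPKM), with clustered members on the left and solitary members on the right, ranked by mean level (x axis). Dots are the 3 replicates, the line is their mean and the dashed line is 1 RPKM: 109 of 210 clustered and 110 of 159 solitary members had a mean above it.

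Counted over windows, the classes differed by less than the spread between replicates. The 1695 windows of clustered members averaged 1.19, 1.21 and 1.37 RPKM in replicates 1 to 3, and the 3844 windows of solitary members 1.22, 1.27 and 1.32. The log2 ratio of clustered to solitary was -0.02 ± 0.06, with clustered higher in 1 of 3 replicates (exact permutation of the signs of the 3 ratios, two-sided, p = 0.75, Benjamini-Hochberg adjusted p = 0.75 over 5 contrasts). With 3 replicates this test cannot give a p below 0.25. The ratio of the mean of gene means, in which each gene with at least 3 windows weighed the same, was -0.31 on the log2 scale, and among genes of 10 to 50 kb it was -0.47.

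Long solitary genes separate the count over genes from the count over windows. The 22 solitary members of at least 100 kb held 58.7% of all solitary windows at 1.03 ± 0.02 RPKM, and 31.0% of their windows carried an H3K27me3 call. The 144 solitary members under 100 kb had 1587 windows at 1.61 ± 0.10 RPKM. In each replicate the shorter solitary genes (1.52, 1.60 and 1.71) were above the long ones (1.00, 1.04 and 1.04). Only 2 clustered members reached 100 kb.

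Against the other protein-coding genes, the windows of members were lower by a small amount. Their mean was 1.27 ± 0.06 RPKM, against 1.33 ± 0.03 over 474384 windows of other genes, a log2 ratio of -0.08 ± 0.04 that was below 0 in 3 of 3 replicates (exact sign-flip permutation test, p = 0.25, adjusted p = 0.313). The direction turned when each gene weighed the same (0.085), and the ratio was -0.0051 for symbols made of Zfp and digits only.

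The highest clustered members were Zfp58, Zfp109, Zfp180 and Zfp110. Zfp58, 10.4 kb long on chromosome 13 (67490167 to 67500555), had 3.34, 4.99 and 4.40 RPKM in replicates 1 to 3 and 251 reads in 5 windows. Zfp109 on chromosome 7 had 2.93, 4.04 and 4.47 RPKM. Zfp180 and Zfp110, also on chromosome 7, averaged 3.50 ± 0.75 and 3.36 ± 0.81. All of their replicate values lay above 2.4 RPKM, and replicate 1 was the lowest replicate of each.

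The lowest clustered members were Zfp975, Zfp825, Zfp976 and Zfp934. Zfp975 on chromosome 7 (42660105 to 42692742) had 0.025, 0.036 and 0.031 RPKM, from 4 reads in 11 windows. Zfp976, the gene next to it, had 8 reads in 12 windows. Zfp934 on chromosome 13 had 13 reads in 18 windows. None of the windows of these genes carried a call of any of the 3 marks. Between 64.5% and 85.9% of the 75-base stretches in these genes occurred once in the genome, and 28 of the 46 windows of Zfp934 were removed by the input filter of the study. Whether reads of related genes were exchanged with them was not tested, and their levels are uncertain.

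Among solitary members Zfp68, Zfp113, Zfp655 and Zfp90 were highest. Zfp68 on chromosome 5 (138603652 to 138619761) had 3.34, 4.31 and 5.54 RPKM. Zfp90 had the closest replicates of these, at 3.26, 3.33 and 3.25 RPKM. Zfp655 and Zfp113 averaged 3.29 ± 0.30 and 3.35 ± 0.76. The lowest were Zfp808, Zfp990, Zfp354a and Zfp202. Zfp808 on chromosome 13 (62129886 to 62236144) had 0.048, 0 and 0.036 RPKM, with 13 reads in 28 windows and 25 further windows removed by the filter. Zfp354a (0.128 ± 0.167) and Zfp202 (0.243 ± 0.169) were low with at least 96.4% unique stretches. Zfp354a had an H3K27me3 call in 5 of 6 windows. Zfp202 had an H3K27me3 call in 5 of 11 windows and no mark in 6.

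How much of a gene is unique went with its level. Of the 75-base stretches in each window, the share that occurs once on the GRCm38 chromosomes and scaffolds was counted. Clustered windows with only unique stretches averaged 1.64 ± 0.13 RPKM, those with 50 to 90% unique stretches 0.442 ± 0.025, and those with under 50% 0.183 ± 0.111. In solitary windows the values were 1.37 ± 0.05, 0.516 ± 0.074 and 0.450 ± 0.136. Windows without a read in any replicate made up 0.543% of the fully unique clustered windows and 25.6% of those with 50 to 90% unique stretches. The windows with 50 to 90% unique stretches were 15.2% of the clustered and 5.72% of the solitary windows.

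**Figure D2:**
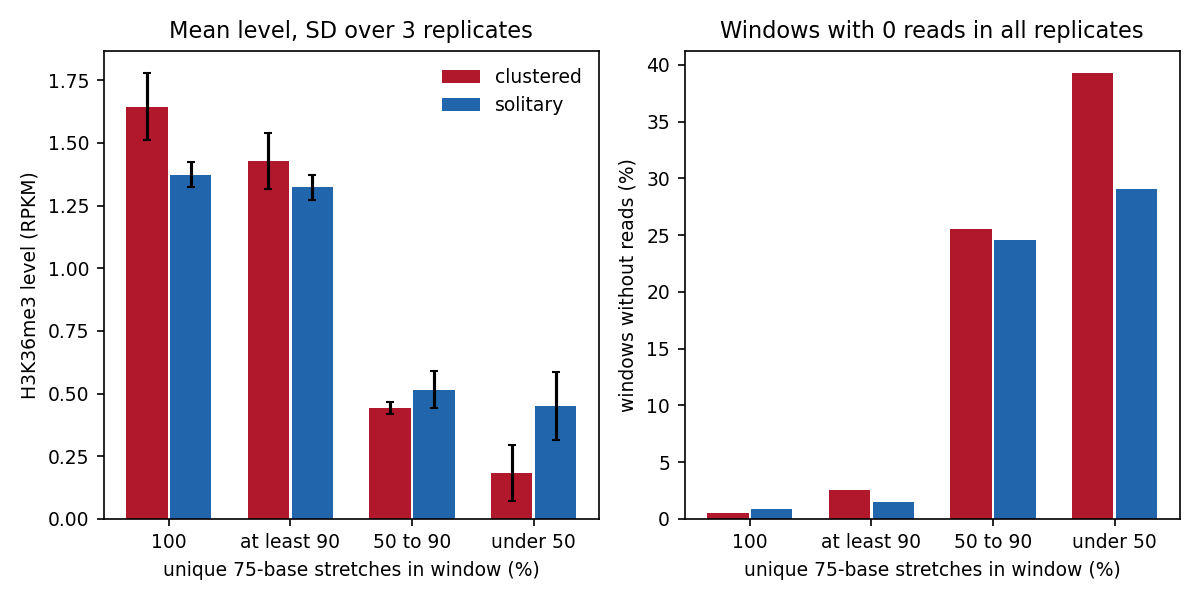
Mean H3K36me3 level (left, RPKM, bars with SD over 3 replicates) and share of windows without reads in any replicate (right, %) by the share of 75-base stretches of a window that occur once in GRCm38 (x axis). The class of at least 90% includes the fully unique windows; levels fell from 1.43 to 0.442 RPKM in clustered windows and from 1.32 to 0.516 in solitary windows between at least 90% and 50 to 90%.

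The same held for genes. Of the 159 clustered members with at least 90% unique stretches 64.2% had a level above 1 RPKM, against 7 of 42 with 50 to 90% and 0 of 9 with under 50%. Of the 141 solitary members with at least 90% unique stretches 73.0% were above 1, against 7 of 14 and 0 of 4. Over windows with at least 90% unique stretches clustered members averaged 1.43 ± 0.11 and solitary members 1.32 ± 0.05, and the log2 ratio turned from -0.02 to 0.11 ± 0.06. How non-unique reads were treated in mapping is not given in the sources used here, and the part of it in these levels was not tested.

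Windows removed by the input filter of the study also fell unevenly. Of the windows that a full tiling would place in clustered members 16.0% were removed (95% Wilson interval 14.5 to 17.7%), against 7.62% in solitary members (6.85 to 8.46%) and 3.14% in other protein-coding genes. All 13 members without a window had under 50% unique stretches, among them Zfp965, Zfp966, Zfp967, Zfp968 and Zfp969 on chromosome 2 with 0%. The levels of these 13 genes could not be measured here.

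Within members the level was higher late in the gene body than early, as it was in other protein-coding genes. In a typical Zfp gene the last exon encodes the finger array. Windows touching the last exon had 1.65, 1.69 and 1.96 RPKM in replicates 1 to 3, and the other windows of members 1.14, 1.19 and 1.24. The log2 ratio was 0.57 ± 0.08, above 0 in 3 of 3 replicates (exact sign-flip permutation test, p = 0.25, the smallest it can give, adjusted p = 0.313). It was 0.65 ± 0.05 in clustered and 0.55 ± 0.08 in solitary members, and it was not computed for other genes.

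In members of at least 10 kb the last 20% of the body stood above the first 20%, at 1.41 ± 0.09 against 0.942 ± 0.026 RPKM. The log2 ratio was 0.58 ± 0.06, above 0 in 3 of 3 replicates (exact sign-flip permutation test, p = 0.25, adjusted p = 0.313). In clustered members it was 0.78, 0.93 and 1.09, and in solitary members 0.43, 0.41 and 0.46. The 13205 other protein-coding genes of that length had 0.45, 0.48 and 0.54, above the solitary and below the clustered ratio in each replicate. The clustered ratio was larger in each replicate, by 0.50 ± 0.14 on the log2 scale (exact sign-flip permutation test, p = 0.25). Windows were pooled over genes, and the 22 solitary members of at least 100 kb held 58.7% of all solitary windows. The part of gene length in the differences between the classes along the body was not tested. With the body in 10 equal parts, clustered members rose from 0.699 ± 0.020 RPKM in the first part to 1.96 ± 0.26 in the ninth and stood at 1.22 ± 0.14 in the last. Solitary members reached their highest value, 1.52 ± 0.07, in the seventh part, and other genes rose steadily from 1.04 to 1.57 RPKM.

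**Figure D3:**
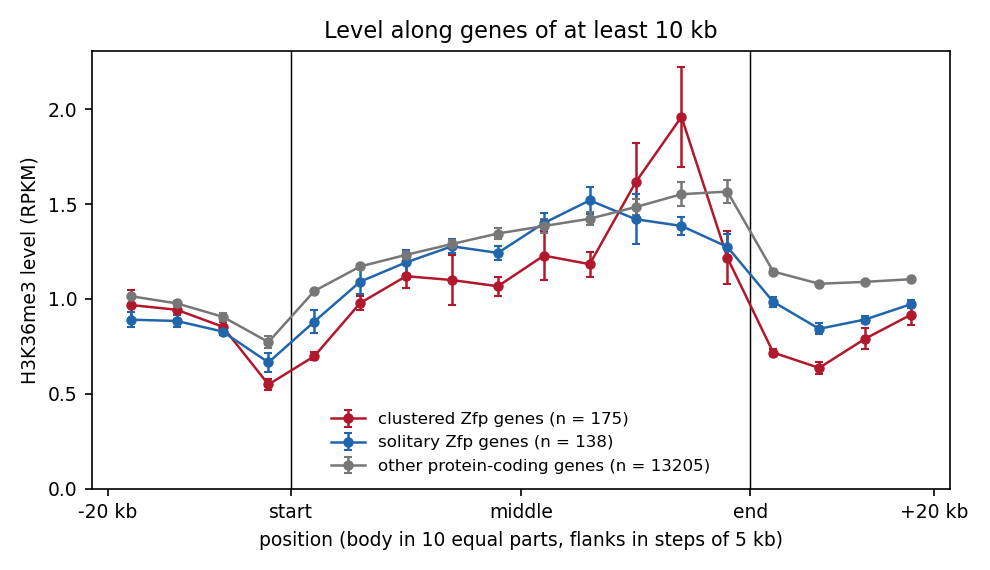
H3K36me3 level (y axis, RPKM) along genes of at least 10 kb, with the body in 10 equal parts and 4 steps of 5 kb on each side (x axis). Points are the mean and bars the SD over 3 replicates; clustered Zfp genes peak at 1.96 RPKM in the ninth part, solitary Zfp genes at 1.52 in the seventh, and other genes end highest, at 1.57 in the last part.

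Between the genes of a cluster the mark was low. The 1131 windows inside the spans of clusters but outside every annotated gene had 0.546, 0.529 and 0.503 RPKM, against 1.19, 1.21 and 1.37 in the clustered members themselves. The log2 ratio was -1.25 ± 0.17, below 0 in 3 of 3 replicates (exact sign-flip permutation test, p = 0.25, adjusted p = 0.313). Enriched windows made up 15.2% of the space between genes and 45.5% of the windows of clustered members. In genes of at least 10 kb, the first 5 kb beyond the gene end had 0.718 ± 0.019 RPKM in clustered and 0.985 ± 0.025 in solitary members. Other protein-coding genes had 1.14 ± 0.01 there.

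Clusters differed from each other, and most held members on both sides of 1 RPKM. Of the 15 clusters with at least 5 members, which held 131 genes, 11 did so. Adjacent members of a cluster lay on different sides in 57 of 162 pairs (35.2%), beside 32.5% of 17176 pairs of neighbouring protein-coding genes. A member was thus about as often unlike its neighbour as any protein-coding gene was, and no test was made of the difference.

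The largest cluster, 23 genes on chromosome 13 (67038596 to 67827002), averaged 1.01 ± 0.08 RPKM, and 7 of its genes were above 1. Zfp58, the highest, lay about in the middle of the cluster. Zfp459 had 0.323, 0.149 and 0.169 RPKM, the lowest among its members with at least 5 windows. Zfp708, which binds and represses retroelement copies, had 2.36, 2.55 and 2.95 RPKM in the same cluster.

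The cluster of 15 genes on chromosome 17 (21383748 to 22225616) averaged 1.03 ± 0.09, with 7 genes above 1. Zfp760 had 2.72, 2.86 and 2.37 RPKM there and Zfp995 0.042, 0.091 and 0.104. The cluster of 15 on chromosome 7 (29768552 to 30169750) averaged 1.56 ± 0.13, with 10 genes above 1, and 97.9% of its stretches were unique. In it Zfp27 had 2.78, 2.51 and 3.27 RPKM, and Zfp30 had 0.516, 0.476 and 0.203 with an H3K27me3 call in all 5 windows. These pairs were chosen as the extremes of their clusters, so the gap between them is a description.

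A cluster of 10 on chromosome 7 (24081924 to 24316666) had 2.21 ± 0.40 RPKM, with 7 genes above 1. Zfp112 in this cluster had 0.458, 0.149 and 0.381, with an H3K27me3 call in 5 of 8 windows, while Zfp109 and Zfp180 were among the highest members of all. The 8 genes on chromosome 17 (32765496 to 33110705) averaged 1.14 ± 0.07, with Zfp472 at 2.56, 2.38 and 2.61 and Zfp799 at 0.407, 0.113 and 0 RPKM. Zfp799 had an H3K27me3 call in 6 of 7 windows.

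Further clusters had every member above 1 RPKM or none, and those named here were picked after their values were seen. All members were above 1 in the 7 genes from Zfp786 to Zfp746 on chromosome 6 (1.91 ± 0.30), the 5 from Zfp329 to Zfp446 on chromosome 7 (2.44 ± 0.31) and the 5 from Zfp868 to Zfp866 on chromosome 8 (1.95 ± 0.10). The 5 genes from Zfp354c to Zfp354b on chromosome 11 averaged 0.473, 0.260 and 0.280 RPKM in replicates 1 to 3. In that cluster 33 of 35 windows had an H3K27me3 call and 98.9% of the stretches were unique. Zfp354a, which lay 127.6 kb from it and so counted as solitary, was low as well.

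**Figure D4:**
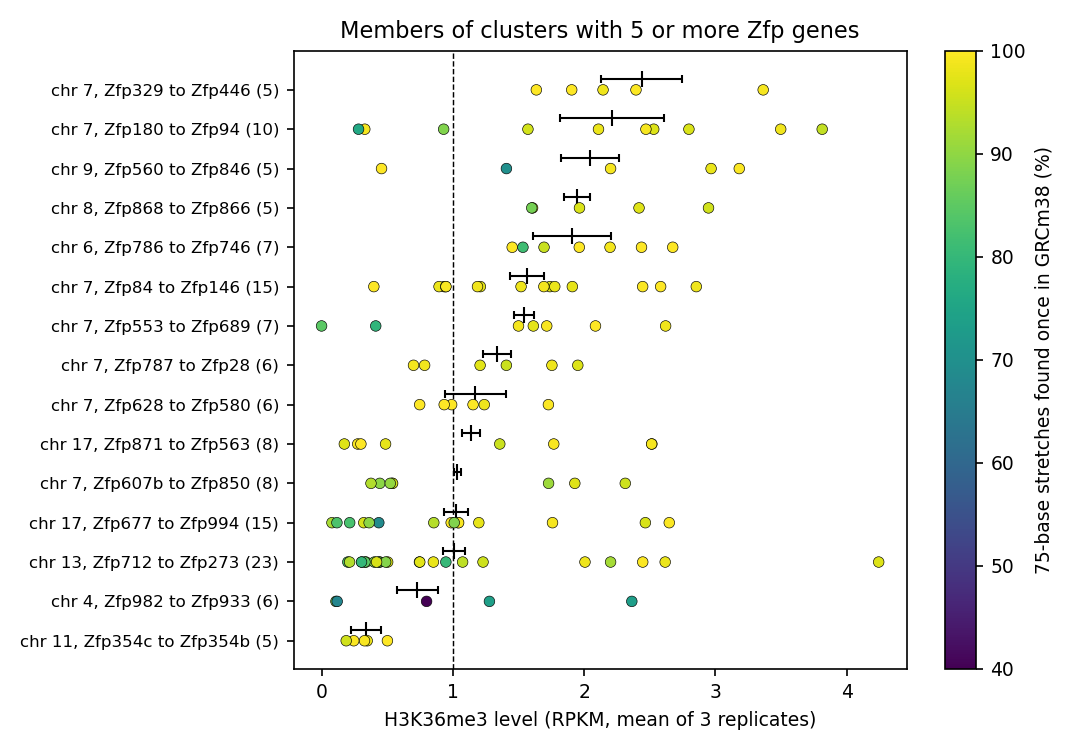
H3K36me3 level of each member (circles, mean of 3 replicates, RPKM) in the 15 clusters with at least 5 Zfp genes, 1 row for each cluster with its member count in brackets, ordered by the mean over windows (black tick with SD over 3 replicates). Colour gives the share of unique 75-base stretches, and the dashed line is 1 RPKM: 11 clusters had members on both sides of it.

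Over chromosomes, the 74 clustered members of chromosome 7 averaged 1.45 ± 0.13 RPKM with 45 above 1, and the 37 of chromosome 17 averaged 1.19 ± 0.10. The 27 of chromosome 13 averaged 0.885 ± 0.060, with 7 above 1, and the 13 of chromosome 4 averaged 0.607 ± 0.107, with 2 of 10 above 1. In the windows kept by the input filter, unique stretches made up 29.8 to 82.3% in the clusters of chromosome 4. In those of chromosome 7 they made up 90.4 to 100%. Windows removed by the filter did not enter these shares. The part of uniqueness in the chromosome means was not tested. At the edge of the distance rule, Zfp605 and Zfp932, 99.7 kb apart and so clustered, had 1.54 ± 0.11 and 0.455 ± 0.465 RPKM, and Zfp715 and Zfp936, 104.1 kb apart and so solitary, had 2.62 ± 0.55 and 0.277 ± 0.046.

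The authors' calls gave fewer H3K27me3 windows, the mark of Polycomb repression, in clustered than in solitary members, and much of that gap lay in the long solitary genes. Of the windows of clustered members 11.9% had an H3K27me3 call (95% Wilson interval 10.4 to 13.5%), against 25.1% of those of solitary members (23.7 to 26.4%), beside 25.9% over all protein-coding genes. In members under 100 kb the shares were 12.1% of clustered windows (10.6 to 13.8%) and 16.6% of solitary windows (14.8 to 18.5%), beside 24.2% in other genes under 100 kb. The 22 solitary members of at least 100 kb had 31.0%. H3K36me3 enrichment was called in 45.5% and 51.6%, beside 52.4%. H3K4me3, a mark of promoters that in oocytes also spreads over broad domains, was called in 25.7% and 22.5%, beside 25.4%. None of the 3 marks was called in 30.5% of clustered windows (28.4 to 32.7%), 18.3% of solitary windows and 15.3% of the windows of other genes. There is 1 call a window with no replicates, and neighbouring windows are not independent, so the intervals cover counting error only.

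**Figure D5:**
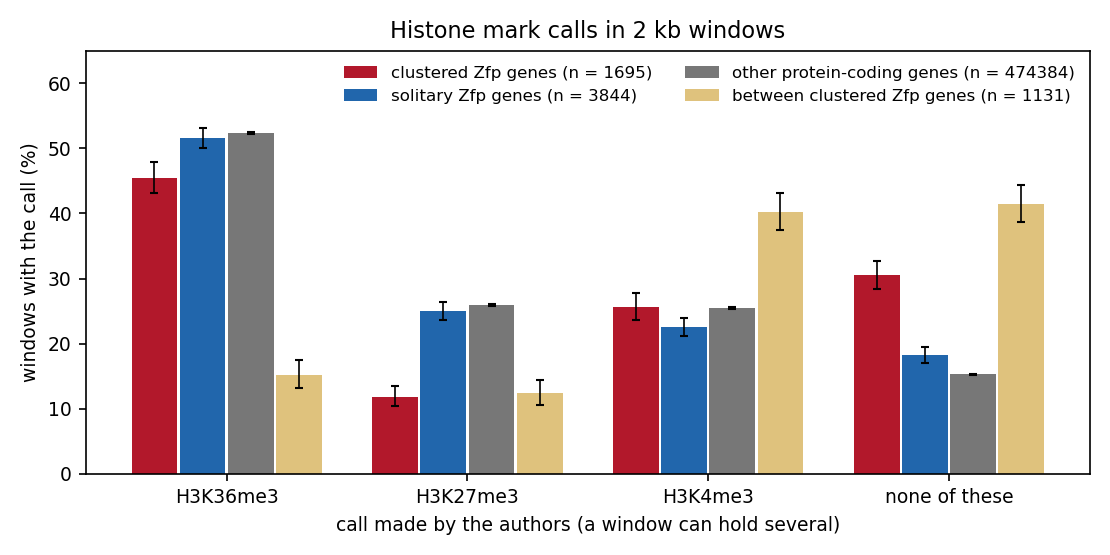
Share of 2 kb windows (y axis, %) with each call by the authors (x axis) in clustered and solitary Zfp genes, other protein-coding genes and the space between clustered Zfp genes; bars carry 95% Wilson intervals. H3K27me3 was called in 11.9% of clustered and 25.1% of solitary windows (16.6% in solitary members under 100 kb), and no mark in 30.5% and 18.3%.

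Members that did not exceed 1 RPKM differed in what marked them instead. Among those with at least 5 windows, 73 clustered members were not above 1, of which 21 had an H3K27me3 call in at least 50% of their windows and 33 had no mark in at least 50%. Of the 33 such solitary members 17 were mostly H3K27me3 and 9 mostly unmarked. Of 5185 other protein-coding genes in that position 60.9% were mostly H3K27me3 and 17.4% mostly unmarked. An H3K4me3 call in at least 50% of windows was held by 22 of the 73 clustered and 6 of the 33 solitary members. Among the other genes 46.4% held it. A window can hold several calls, so the H3K4me3 and H3K27me3 classes overlap. Unmarked windows went with uniqueness in both classes. With 50 to 90% unique stretches 72.5% of clustered and 73.6% of solitary windows were unmarked, while with only unique stretches 9.78% and 10.6% were, so the gap between the classes was not seen in fully unique windows.

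Most starts of members had H3K4me3. The window holding the gene start had the call in 84.6% of 195 clustered members (95% Wilson interval 78.9 to 89.0%), 92.8% of 153 solitary members (87.6 to 95.9%) and 76.9% of 18444 other genes. H3K36me3 at these windows was low, at 0.497 ± 0.028, 0.769 ± 0.007 and 0.703 ± 0.037 RPKM. In the space between clustered genes 40.2% of windows had an H3K4me3 call.

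Among members with known roles, all of which are solitary apart from the repressors named last, the 5 general regulators had levels above 1 RPKM, with a median of 2.29. The share above 1 RPKM was 59.3% over all members, 69.2% over solitary members and 54.0% over all autosomal protein-coding genes. Zfp207, which binds spindle microtubules, had 2.39, 3.96 and 2.89 RPKM. Zfp143, a transcription factor of small nuclear RNA and other promoters, had 2.24, 2.45 and 2.19. Zfp281, a regulator of pluripotency, Zfp384 and Zfp148 averaged 2.56 ± 0.44, 1.84 ± 0.35 and 1.62 ± 0.13. None of the 5 had an H3K27me3 call in any window.

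The lineage and neural genes were mostly low: 2 of 9 were above 1 RPKM, with a median of 0.552. The shares above 1 were 59.3% of all members, 69.2% of solitary members and 54.0% of all autosomal protein-coding genes. Zfp536, a repressor of neuronal differentiation, had 0.344, 0.412 and 0.260 RPKM over 301.5 kb, with an H3K27me3 call in 142 of 151 windows. Zfp462 had 0.321, 0.414 and 0.245 RPKM with H3K27me3 in 66 of 69 windows. Both genes were low in each replicate with over 99% unique stretches. Zfp423, a regulator of cerebellar and adipocyte precursors, had 1.54, 1.65 and 1.69 RPKM over 297.8 kb, with 116 windows enriched and 57 with H3K27me3 of 149. Zfp804b, the longest member named at 575.7 kb, had 0.885, 0.888 and 0.941, and 120 of its 270 windows had no mark. Zfp703 (1.04 ± 0.30) rested on 2 windows, and Zfp503, Zfp488, Zfp804a and Zfp521 averaged between 0.523 and 0.825.

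Of the 6 RNA-binding members 3 were above 1 RPKM, near the share of all autosomal protein-coding genes (54.0%). The share was 59.3% over all members and 69.2% over solitary members, the class of all 6. Tristetraprolin, the product of Zfp36, and its relatives bind AU-rich elements and promote mRNA decay. Their genes are short and gave few windows: Zfp36 had 11 reads in 2 windows, Zfp36l1 3 reads in 3 windows and Zfp36l2 25 reads in 2 windows. An H3K27me3 call lay in 2 of 2 windows of Zfp36, 2 of 3 of Zfp36l1 and 0 of 2 of Zfp36l2. Zfp36l2, which oocyte maturation needs, had 0.679, 0.396 and 2.20 RPKM, so its mean of 1.09 rested on replicate 3. Zfp106 had 2.11, 1.98 and 1.90 RPKM over 29 windows, Zfp638 averaged 1.34 ± 0.15 and Zfp326 averaged 0.741 ± 0.146. Zfp106 was the only member of the list above 1.5 RPKM in every replicate.

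Of the 4 repressors of retroelements or imprinted genes, all clustered, Zfp708 and Zfp568 were above 1 RPKM, near the share of 51.9% over all clustered members. Zfp568, which represses a placental transcript of Igf2, had 1.85, 1.57 and 1.80 RPKM over 22 windows. Zfp809, which silences murine leukaemia virus sequences, had 0.619, 0.617 and 0.451, with 6 of 9 windows unmarked. Zfp932 had 0.204, 0.991 and 0.169 RPKM from 9 reads in 2 windows, since 5 of its 7 windows were removed by the input filter. The replicates of Zfp568 and Zfp809 did not overlap, while Zfp932 was too thinly covered to be placed.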

How the data were processed

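Per the labels and the methods of the study, the authors performed ultra-low input native ChIP-seq with single-end reads of 75 bases, mapped them to GRCm38 with Bowtie2 2.2.9, and deposited RPKM values for 2 kb windows quantified in SeqMonk, after excluding windows outside set limits of the input signal. Removal of duplicates and a mapping quality filter are not given in the sources used here. A second deposited table named the marks called in each window, with H3K4me3 and H3K27me3 from libraries published earlier. The deposited RPKM values were all whole multiples of 1 read (within 0.01 reads), and reads were recovered from them (7888140, 2692510 and 3166564 in valid windows of replicates 1 to 3). The H3K36me3 call equalled a mean RPKM above 1 in every window.

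Windows were assigned by midpoint to GENCODE M21 genes (Python 3.11.15, NumPy 2.4.6, pandas 2.3.3, SciPy 1.17.1). Levels were compared as the log2 ratio of mean RPKM within each replicate, with no pseudocount, by a two-sided exact sign-flip test over 3 replicates (smallest p 0.25), adjusted over 5 contrasts by Benjamini-Hochberg. The replicates were separate pools of oocytes, so p-values measure the spread between pools. The last exon was that of the transcript with the longest coding sequence. Uniqueness counted 75-base stretches in either orientation on the GRCm38 chromosomes and scaffolds, without alternate loci and patches. The scripts were tested on simulated data. A contrast of members with and without a KRAB domain was planned for a protein table, which was not used here. A trial by letter matching of translated coding sequences missed members known to carry the domain and is not reported. Named members were the 4 highest and 4 lowest clustered and solitary members with at least 5 windows, the highest and lowest of the 5 largest clusters, and the members of 4 lists of known roles; others are named where said. The members and lists were chosen with earlier results of these data known. Alternatives covered replicates, low values, a pseudocount of 0.1, the threshold, the distance, the weighting of genes, gene length, overlapping genes, the symbol rule and the largest cluster. Windows without an H3K27me3 call and windows with at least 90% unique stretches were added as alternatives after seeing the data.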

Additional observations from a re-analysis of the deposited data

How the results depend on the processing

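Of 80 alternative values for 11 results, 63 were counted as unchanged. For levels and shares this meant within the spread between replicates or the interval of the value. The count of members above 1 RPKM was judged more loosely, since 163 at a threshold of 1.5 was counted as unchanged from 219. Leaving out each replicate in turn gave log2 ratios of -0.05 to 0.01 for clustered against solitary members, -0.10 to -0.06 for Zfp against other genes, 0.52 to 0.59 for the last exon, 0.54 to 0.60 for the last against the first 20% of the body and -1.32 to -1.16 for the space between genes, and 217 to 221 members above 1 RPKM. A mean of 2 of the 3 values cannot move far from the mean of all, so this says little on stability.

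The ratio of clustered to solitary members depended on how genes were weighed and on which windows were used: -0.31 for the mean of gene means, -0.49 for the median over genes, -0.47 for genes of 10 to 50 kb, -0.17 without windows called for H3K27me3, and 0.11, in the other direction, for windows with at least 90% unique stretches (the last 2 chosen after seeing the data). For Zfp against other genes the mean of gene means gave 0.085, reversing the direction, and symbols of Zfp and digits only gave -0.0051. The space between genes had -1.07 with members within 50 kb. Members above 1 RPKM fell from 219 to 163 at a threshold of 1.5 and to 94 at a threshold of 2. They numbered 189 when all 3 replicates had to be above 1, and 186 with at least 5 windows. Enriched windows were 33.4%, 21.9% and 29.6% of clustered windows at thresholds of 1.5 and 2 and above 1 in all 3 replicates, and 37.8%, 23.9% and 31.9% of solitary windows, with 55.2% for symbols of Zfp and digits only. The same symbols gave 11.3% of windows removed. Apart from thresholds, which count fewer windows by construction, the cause was not tested. The KRAB alternatives were not run. At 3 reads for a window above 1 RPKM in replicates 2 and 3, genes with few windows are poorly resolved.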
